A study of Mus musculus with 4 samples.

Results

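The insulin-like growth factor (IGF) family was read in lung endothelial cells of mice as 10 genes: the ligands Igf1 and Igf2, the receptors Igf1r and Igf2r, and the binding proteins Igfbp2 to Igfbp7. The genes were chosen by symbol, all 10 are among the 17915 coding genes of the deposited table, and all 10 passed the filter on low counts that left 13177 genes for testing. All mice carried the genotype Cdh5-CreER;aSMA-LSL-Dre;NR1, had been given tamoxifen 5 times and had undergone transverse aortic constriction (TAC), an operation that narrows the aorta and loads the heart and lung, 6 weeks before. Cdh5 drives the inducible Cre in endothelium, so that endothelial cells were marked with ZsGreen, and a Dre recombinase set by the alpha smooth muscle actin (aSMA) gene turned the mark to tdTomato in cells where that gene had been on, even if only for a while. The study asked what set the 2 kinds of marked cell apart, and compared 2 bulk RNA libraries of tdTomato+ cells with 2 of ZsGreen+ cells. No library of unoperated mice was analysed here, so nothing below compares TAC with its absence. The sources used here give no age, sex or strain background. The libraries are labelled as biological replicates, but whether they came from separate mice is not given, so p-values measure only the spread between these libraries.

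IGF-1 and IGF-2 are secreted growth factors that act through the receptor tyrosine kinase IGF1R and, downstream, through insulin receptor substrates, PI3K and Akt. IGF2R is no signalling receptor of that kind: it is the cation-independent mannose 6-phosphate receptor, which carries lysosomal enzymes and takes up IGF-2 for breakdown. Binding proteins hold IGFs in blood and tissue and decide how much reaches the receptor, and proteases that cut them release the ligand. In lung the ligands are known mainly from fibroblasts and macrophages, while endothelium is known as a source of several binding proteins.

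The libraries held 17050673 to 18574737 estimated counts. Acta2, the gene that sets the recorder, stood at 281 and 450 TPM, the length-scaled level, in tdTomato+ replicates 1 and 2, against 62.1 and 70.6 TPM in ZsGreen+ replicates 1 and 2. All 8 endothelial markers were read in every library, with summed levels of 3570 to 3754 TPM in tdTomato+ and 3661 to 4154 TPM in ZsGreen+ libraries. Markers of other lung cells were present too. Summed TPM in tdTomato+ replicates 1 and 2 and then ZsGreen+ replicates 1 and 2 was 117.7, 186.8, 39.5 and 48.1 for 9 fibroblast markers. For 10 macrophage markers it was 9413.7, 4230.9, 4295.5 and 1036.3, most of it Lyz2. None of the 52 markers on 7 lists was at 0 in every library. Values are compared between genes in TPM, which divides by gene length, and between groups in CPM, the count per library size, after TMM scaling, as mean ± SD with n = 2 per group. In bulk RNA fewer cells of a type and less RNA per cell cannot be told apart.

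Binding proteins far outweighed ligands and receptors at the RNA level, and 2 of them made up nearly all of it. Igfbp7, a binding protein with low affinity for IGFs that is deposited around vessels, stood at 2857 and 2360 TPM in the tdTomato+ libraries against 3402 and 2174 in the ZsGreen+ libraries. It ranked between 39 and 55 among all genes of a library. Igfbp4, a binding protein known mainly as an inhibitor of IGF action, stood at 431.7 and 500.7 TPM in the tdTomato+ libraries against 351.8 and 319 in the ZsGreen+ libraries. Igfbp7 and Igfbp4 together took 98.8% to 99.5% of the summed TPM of the 6 binding proteins in each library. The summed binding protein level was 373 to 3223 times that of both ligands in the same library, a ratio of RNA levels and not of protein.

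The other 8 genes were each at or under 11.9 TPM in every library. Ordered by their mean over the 4 libraries they were Igfbp5 (9.05 TPM), Igf2r (7.62), Igf1r (6.87), Igfbp3 (6.01), Igfbp6 (5.95), Igf2 (2.95), Igfbp2 (1.62) and Igf1 (0.65). The libraries of Igfbp5, Igf2r, Igf1r, Igfbp3 and Igfbp6 overlapped in TPM, so the order among those 5 is not settled. Igfbp2, at 0.12 to 4.24 TPM, overlapped Igf2, Igf1, Igfbp3 and Igfbp6, so its place is not settled either. Igf2 overlapped Igf1r, Igfbp3 and Igfbp6 across libraries, and in tdTomato+ replicate 2 it stood above Igf1r (6.50 against 5.82 TPM). Its range across libraries overlapped that of Igf1 too, but Igf2 lay 3.79 to 5.12 times above Igf1 in each library.

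**Figure D1:**
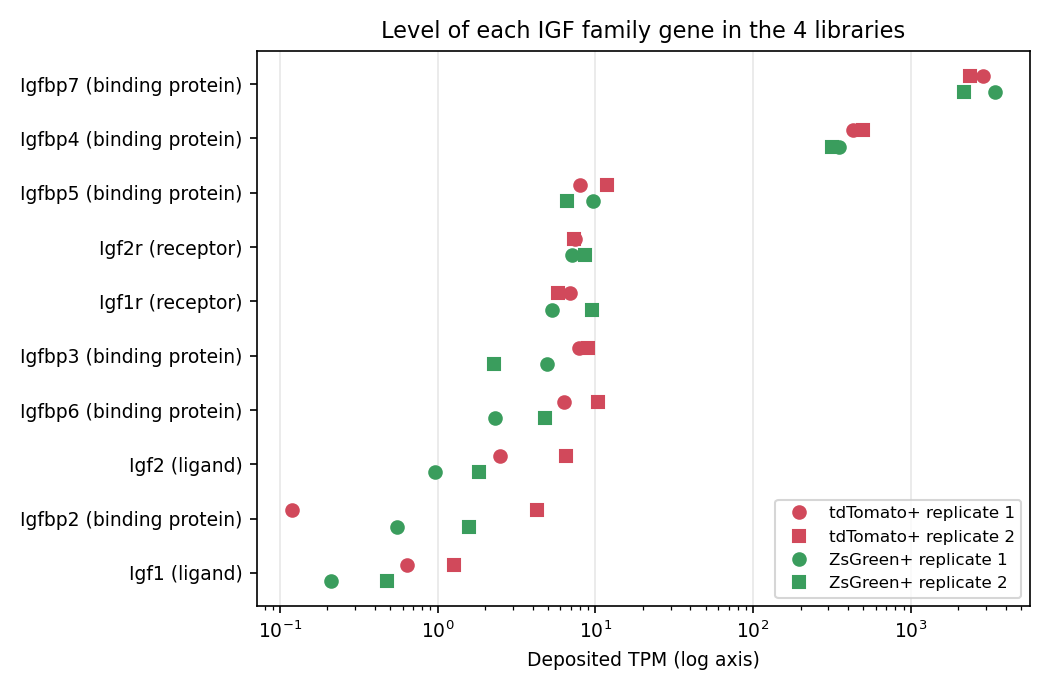
Deposited TPM (log axis) of the 10 genes in each library; red marks tdTomato+ and green ZsGreen+ libraries, circles replicate 1 and squares replicate 2. Igfbp7 and Igfbp4 stand above 300 TPM in all 4 libraries and the other 8 genes at or under 11.9 TPM.

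The start regions of 4 binding protein genes show the sequence beside these levels: Igfbp7 and Igfbp4 because they hold nearly all binding protein RNA, Igfbp3 and Igfbp6 because their tdTomato+ libraries stood above both ZsGreen+ libraries. All 10 genes matched the RefSeq promoter table by gene identifier. Each window runs from 250 bases before the start of transcription to 50 after it in GRCm38.p6, 5′ to 3′ on the gene's strand, and capitals mark matches on either strand to the TATA box letters TATAAA, to the CAAT box letters CCAAT, to the GC box letters GGGCGG or to the AP-1 letters TGACTCA.
Igfbp7, chr5:77407996-77408295, minus strand: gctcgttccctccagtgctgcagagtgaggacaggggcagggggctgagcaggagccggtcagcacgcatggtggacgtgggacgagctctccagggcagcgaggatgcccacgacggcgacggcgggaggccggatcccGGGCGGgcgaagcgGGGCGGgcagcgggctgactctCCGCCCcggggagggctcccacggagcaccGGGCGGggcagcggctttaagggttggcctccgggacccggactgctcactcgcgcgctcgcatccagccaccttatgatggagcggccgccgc
Igfbp4, chr11:99040994-99041293, plus strand: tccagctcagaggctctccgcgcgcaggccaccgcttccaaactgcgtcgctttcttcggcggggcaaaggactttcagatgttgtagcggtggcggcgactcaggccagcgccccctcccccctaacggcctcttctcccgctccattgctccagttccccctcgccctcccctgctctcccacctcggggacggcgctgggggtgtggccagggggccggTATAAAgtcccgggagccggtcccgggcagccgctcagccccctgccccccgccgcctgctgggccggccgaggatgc
Igfbp3, chr11:7213874-7214173, minus strand: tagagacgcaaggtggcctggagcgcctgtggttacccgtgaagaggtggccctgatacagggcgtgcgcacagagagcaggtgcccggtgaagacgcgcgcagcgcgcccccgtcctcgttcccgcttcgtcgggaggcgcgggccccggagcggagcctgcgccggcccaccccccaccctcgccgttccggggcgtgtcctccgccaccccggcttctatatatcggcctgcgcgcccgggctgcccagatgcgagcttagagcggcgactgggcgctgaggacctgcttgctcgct
Igfbp6, chr15:102143936-102144235, plus strand: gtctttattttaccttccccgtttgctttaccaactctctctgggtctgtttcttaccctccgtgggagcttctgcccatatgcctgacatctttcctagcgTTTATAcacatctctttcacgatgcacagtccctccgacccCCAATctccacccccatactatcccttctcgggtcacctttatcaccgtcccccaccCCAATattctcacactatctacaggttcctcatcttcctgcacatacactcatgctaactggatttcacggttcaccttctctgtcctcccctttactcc

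The GC box was found 4 times in the Igfbp7 window and in none of the other 3 shown. It occurs in 35.7% of 32851 promoter windows of that length. The TATA box letters began 28 bases before the start of Igfbp4. In Igfbp6 they stood on the opposite strand, 148 bases before the start, and 13.6% of all windows hold them on either strand. Igfbp6 also held the CAAT box at 2 places, which 37.4% of windows contain, and no window shown held the AP-1 letters, found in 5.2% of all windows. The 4 genes differed in base composition. The windows of Igfbp3, Igfbp7 and Igfbp4 held 37, 33 and 27 CG pairs and that of Igfbp6 held 8, against a median of 7 over all windows. The windows of Igfbp4 and Igfbp3 lie inside the RefSeq spans of those genes (99040005 to 99052655 and 7206086 to 7215498). The starts shown for those 2 genes are thus not the outermost ones. A match is a string of letters and was not tested for binding.

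None of the 10 genes passed the test between tdTomato+ and ZsGreen+ cells. edgeR's quasi-likelihood test, adjusted over all 13177 genes, called 0 of the 10 beside 0.304% of all genes, with edgeR adjusted p from 0.59 to 0.971. At an unadjusted p under 0.05 edgeR also had 0 of the 10, against 8.77% of all genes. DESeq2 had 1, Igfbp3, against 8.91%, and limma-voom had the same gene against 9.34%, and after adjustment neither tool called any of the 10, beside 2.50% of all genes for DESeq2 and 0.250% for limma-voom. Other settings had more of the 10 at an unadjusted p under 0.05. Without the filter on low counts edgeR had 4, Igf1, Igf2, Igfbp3 and Igfbp6, beside 8.34% of all genes. limma had 4 of the 9 genes it could fit, Igf2, Igfbp3, Igfbp4 and Igfbp6, on log2(TPM + 1) and on log2(TPM + 0.1), beside 9.27% and 9.02%. None of the 10 was called after adjustment in those 3 fits. The fitted value was above 0 for 7 genes and below 0 for 3, with a median log2 fold change of 0.65 against -0.01 over all genes tested. In 5 of the 10 the groups did not overlap in CPM, with Igf1, Igf2, Igfbp3 and Igfbp6 higher and Igf2r lower in tdTomato+ cells, beside 38.1% of all genes. In deposited TPM it was also 5, with Igfbp4 higher in place of Igf2r lower, beside 37.0% of all genes. With upper quartile factors in place of TMM it was 6, with both Igfbp4 higher and Igf2r lower, beside 37.2% of all genes. The TPM scale set the median log2 fold change of all genes at 0.13, where TMM set it at -0.01.

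**Figure D2:**
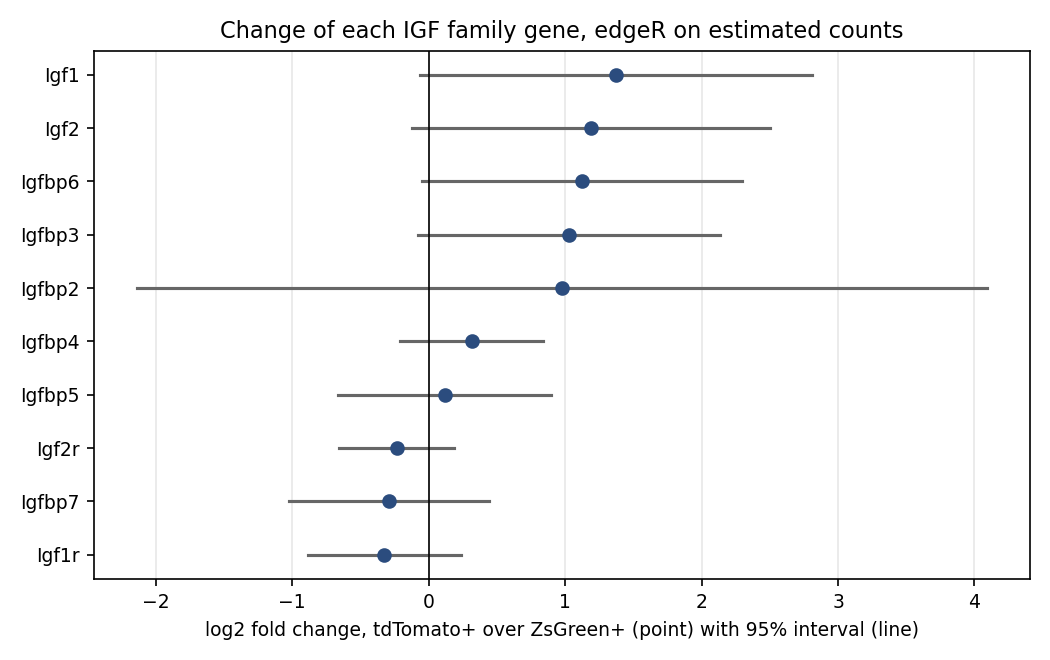
Log2 fold change of each gene, tdTomato+ over ZsGreen+, from edgeR (point) with its 95% interval (line), ordered by value. All 10 intervals include 0; those of Igf1, Igf2, Igfbp3 and Igfbp6 reach furthest above it apart from the wide interval of Igfbp2.

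Both ligands stood higher in tdTomato+ cells at low level. Igf1, made in many tissues in response to growth hormone, had 49 and 108 counts in tdTomato+ cells and 17 and 39 in ZsGreen+ cells. That is 2.70 and 5.67 CPM against 1.08 and 2.14 CPM, with the lower tdTomato+ library just above the higher ZsGreen+ library. edgeR gave a log2 fold change of 1.37 (SE 0.61, adjusted p = 0.59), a fold of 2.59 with an interval of 0.96 to 7.01. It ranged from 0.76 without tdTomato+ replicate 2 to 1.95 without ZsGreen+ replicate 2 (edgeR adjusted p = 0.999 and 0.311). In such fits the 1 library left in a group is assumed to vary like those of the other group. Igf2, the fetal growth factor transcribed from the paternal allele in most mouse tissues, had 64 and 159 counts against 31 and 59. Its 3.52 and 8.35 CPM lay above the 1.96 and 3.23 CPM of ZsGreen+ cells, again with a narrow gap. edgeR gave a log2 fold change of 1.19 (SE 0.55, adjusted p = 0.628), a fold of 2.28 with an interval of 0.92 to 5.66. It ranged from 0.46 without tdTomato+ replicate 2 to 1.68 without tdTomato+ replicate 1 (edgeR adjusted p = 0.999 and 0.818). Replicate 2 exceeded replicate 1 within each group by 1.65 to 2.37 times for the ligands, a spread close to the difference between groups.

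The receptors lay within a narrower range. Igf1r, the signalling receptor, stood at 50 and 44.3 CPM in the tdTomato+ libraries against 47.1 and 70.8 in the ZsGreen+ libraries. Only ZsGreen+ replicate 2 stood apart, and the groups overlapped. edgeR gave a log2 fold change of -0.32 (SE 0.24, adjusted p = 0.825), and its interval in folds ran from 0.54 to 1.18. Without ZsGreen+ replicate 2 it was 0.00 and without ZsGreen+ replicate 1 -0.58 (edgeR adjusted p = 0.995 and 0.212). Igf2r stood at 40.2 and 41.1 CPM against 47.2 and 48.3 CPM, the closest agreement within groups of any of the 10 genes. The difference of -0.23 (SE 0.18, edgeR adjusted p = 0.826) left an interval of 0.63 to 1.14-fold, so a change of 2-fold either way lies outside it for both receptors. Igf1r TPM over Igf2r TPM was 0.92 and 0.80 in tdTomato+ cells and 0.74 and 1.10 in ZsGreen+ cells, without separation of the groups. Insr, the insulin receptor, which pairs with IGF1R in hybrid receptors, had 55.8 ± 6.55 CPM in tdTomato+ and 43.3 ± 10.3 CPM in ZsGreen+ cells (edgeR log2 fold change 0.37, SE 0.23, adjusted p = 0.773).

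The abundant binding proteins showed no separation in CPM after TMM scaling. Igfbp7 stood at 1638 and 1431 CPM in tdTomato+ cells, between the 2441 and 1311 CPM of the ZsGreen+ libraries. The log2 fold change of -0.29 (SE 0.31, edgeR adjusted p = 0.89) rested on ZsGreen+ replicate 1, and without that library it was 0.23 (edgeR adjusted p = 0.683). Igfbp4 stood at 508 and 620 CPM against 514 and 393 CPM, so that tdTomato+ replicate 1 and ZsGreen+ replicate 1 were nearly level. With upper quartile factors in place of TMM its groups did not overlap. edgeR gave a log2 fold change of 0.31 (SE 0.22, adjusted p = 0.812), with an interval of 0.86 to 1.79-fold. It ranged from 0.13 without ZsGreen+ replicate 2 to 0.52 without ZsGreen+ replicate 1 (edgeR adjusted p = 0.794 and 0.32).

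Summed over the 6 binding proteins the level was 3311 and 2897 TPM in the tdTomato+ libraries against 3771 and 2508 in the ZsGreen+ libraries, a log2 ratio of group means of -0.016 (exact two-sided permutation p = 1, n = 2 per group). The sign of this ratio turned with the library left out, from -0.281 without ZsGreen+ replicate 2 to 0.307 without ZsGreen+ replicate 1. Igfbp7 TPM over Igfbp4 TPM was 6.62 and 4.71 in tdTomato+ cells and 9.67 and 6.82 in ZsGreen+ cells. The binding proteins other than Igfbp7 summed to 454 and 536 TPM against 369 and 334 TPM. For these last 2 measures the groups did not overlap in TPM, and each had the smallest exact two-sided permutation p that 2 against 2 libraries allow, 0.333. On that scale 28.8% of all genes were higher and 8.17% lower in tdTomato+ cells without overlap. Igfbp4, nearly all of the sum without Igfbp7, overlapped between groups in CPM after TMM scaling.

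**Figure D3:**
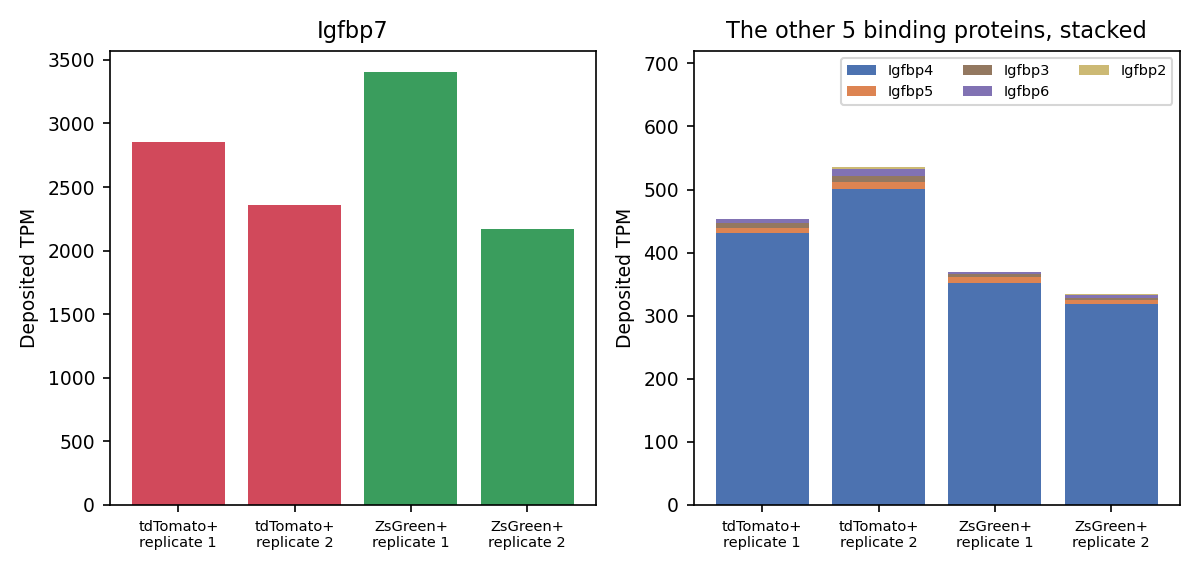
Deposited TPM per library of Igfbp7 (left) and of the other 5 binding proteins stacked (right), on axes of different height that both start at 0. The highest and the lowest Igfbp7 bar are both ZsGreen+ (3402 and 2174 TPM), while the stacked bars, nearly all Igfbp4, are 454 and 536 TPM in tdTomato+ and 369 and 334 TPM in ZsGreen+ cells.

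Igfbp3 and Igfbp6 were the binding proteins whose tdTomato+ libraries both stood above both ZsGreen+ libraries in CPM. Igfbp3, the main IGF carrier of blood, had 10.9 and 13.1 CPM against 8.48 and 3.34 CPM. ZsGreen+ replicate 2 was the low library. edgeR gave a log2 fold change of 1.03 (SE 0.47, adjusted p = 0.61), 0.50 without ZsGreen+ replicate 2 and 1.85 without ZsGreen+ replicate 1 (edgeR adjusted p = 0.508 and 0.0675). Igfbp6, which prefers IGF-2 over IGF-1, had 4.29 and 7.40 CPM against 1.96 and 3.40 CPM, from 78 and 141 counts against 31 and 62. edgeR gave a log2 fold change of 1.12 (SE 0.49, adjusted p = 0.59), a fold of 2.17 with an interval of 0.96 to 4.90. It ranged from 0.69 without tdTomato+ replicate 2 to 1.57 without ZsGreen+ replicate 2 (edgeR adjusted p = 0.999 and 0.304).

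Igfbp5 and Igfbp2, neighbours on chromosome 1 that are transcribed toward each other with 5590 bases between them, did not separate the groups. Igfbp5, which binds matrix as well as IGFs, stood at 27.8 and 43.5 CPM in the tdTomato+ libraries against 41.6 and 24.2 in the ZsGreen+ libraries. Each group held a high and a low library, and edgeR gave a log2 fold change of 0.12 (SE 0.33, adjusted p = 0.971). The sign turned without the second replicate of either group, at -0.22 for tdTomato+ and -0.23 for ZsGreen+, and the value was 0.56 without ZsGreen+ replicate 1. Igfbp2, which carries an integrin-binding motif, rested on 1 and 53 counts in tdTomato+ cells and 7 and 18 counts in ZsGreen+ cells. Its tdTomato+ libraries were the lowest and the highest of the 4. The interval of its log2 fold change ran from -2.14 to 4.09, so neither direction is settled. The tdTomato+ libraries lay 50.58-fold apart for Igfbp2, though their total estimated counts were close, at 17399497 and 18574737. The source of that gap was not tested.

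Replicate 2 exceeded replicate 1 in both groups for 5 of the 10 genes, Igf1, Igf2, Igf2r, Igfbp2 and Igfbp6, beside 27.9% of all genes tested. Igfbp6 had the smallest p of the 10, 0.0584 before adjustment. The genes nearest to it among 10359 others with a mean of at least 5 CPM, by Euclidean distance of centred log2 CPM over the 4 libraries, were Enah, Tpm2 and Cep55, at distances of 0.155, 0.157 and 0.158. ENAH extends actin filaments, TPM2 is a tropomyosin and CEP55 acts in the last step of cell division. Cep55 stood at 5.39 and 9.35 CPM in the tdTomato+ libraries against 2.22 and 4.44 in the ZsGreen+ libraries. With 4 libraries such likeness describes these libraries only.

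Fibroblast markers had fitted values in the same direction as Igf1, Igf2, Igfbp3 and Igfbp6. All 9 had fitted values above 0, with a median log2 fold change of 1.27, and 5 were higher without overlap between groups, beside 19.9% of all genes, though edgeR called none of them. Their values ran from 0.21 to 2.49. The fibroblast markers not among those 5 overlapped between groups: Pdgfra (log2 fold change 0.21), Tcf21 (0.32), Dpt (0.37) and Lum (0.95). All 9 were highest in tdTomato+ replicate 2, as were those 4 genes. That was not particular to fibroblast markers. Highest there too were 2 of 2 tested mesothelial, 6 of 8 smooth muscle and pericyte and 3 of 5 alveolar type 2 markers. The share over all genes was not counted. Pi16, a marker of adventitial fibroblasts, stood at 61.4 and 79.3 CPM in tdTomato+ and 18.2 and 7.01 CPM in ZsGreen+ cells, and Col1a1, a fibrillar collagen, at 65.4 and 143.7 against 23.2 and 46.3 CPM. The 10 macrophage markers had a median of 0.90, and all 10 had fitted values above 0. Lyz2, lysozyme, stood at 3953 and 1969 CPM against 2269 and 469 CPM, with overlap between the groups. Lyz2 and 8 others of the 10 were highest in tdTomato+ replicate 1. Chil3 was among them, at 1089 and 307.9 CPM against 514.9 and 73.02 CPM. Only Marco, a scavenger receptor of alveolar macrophages named after its values were seen, was highest in tdTomato+ replicate 2, at 11.3 and 55.2 CPM against 4.999 and 12.7 CPM. The 5 mesothelial markers summed to 23.4 and 36.1 TPM against 16.1 and 13.1 TPM. Most of that was Krt19, at 21.9 and 29.6 against 14.6 and 11.4 TPM. Only 2 of the 5 were tested, and Msln, the other tested marker, overlapped between groups. The 5 alveolar type 2 markers summed to 797 and 866 against 404 and 222 TPM. All 5 were higher without overlap between groups, beside 19.9% of all genes. Smooth muscle and pericyte markers summed to 1569 and 1999 TPM against 1229 and 1011 TPM, nearly all of it Tagln. Of these 8 markers 3 were higher and 1 lower without overlap between groups, beside 19.9% and 18.2% of all genes. The 8 endothelial markers had 1 higher and 3 lower without overlap, beside the same shares, and edgeR called none. Among them Pecam1 stood at 1862 and 1809 against 2104 and 1940 CPM. Cldn5 stood at 406.5 and 533.1 against 769.4 and 915.1 CPM (edgeR log2 fold change -0.84, SE 0.22, adjusted p = 0.272). Of 7 lymphatic endothelial markers edgeR called 3 lower, Reln, Mmrn1 and Thy1, beside 0.137% of all genes, and the median log2 fold change of the 7 was -2.03. Lyve1, the most abundant of them, had 503 and 840 CPM against 407 and 593 CPM (edgeR log2 fold change 0.42, SE 0.31, adjusted p = 0.819). The summed level of the 7 overlapped, at 415.5 and 593 TPM against 408.5 and 637.4 TPM. The part of these other cells in the values of the 10 genes was not tested.

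**Figure D4:**
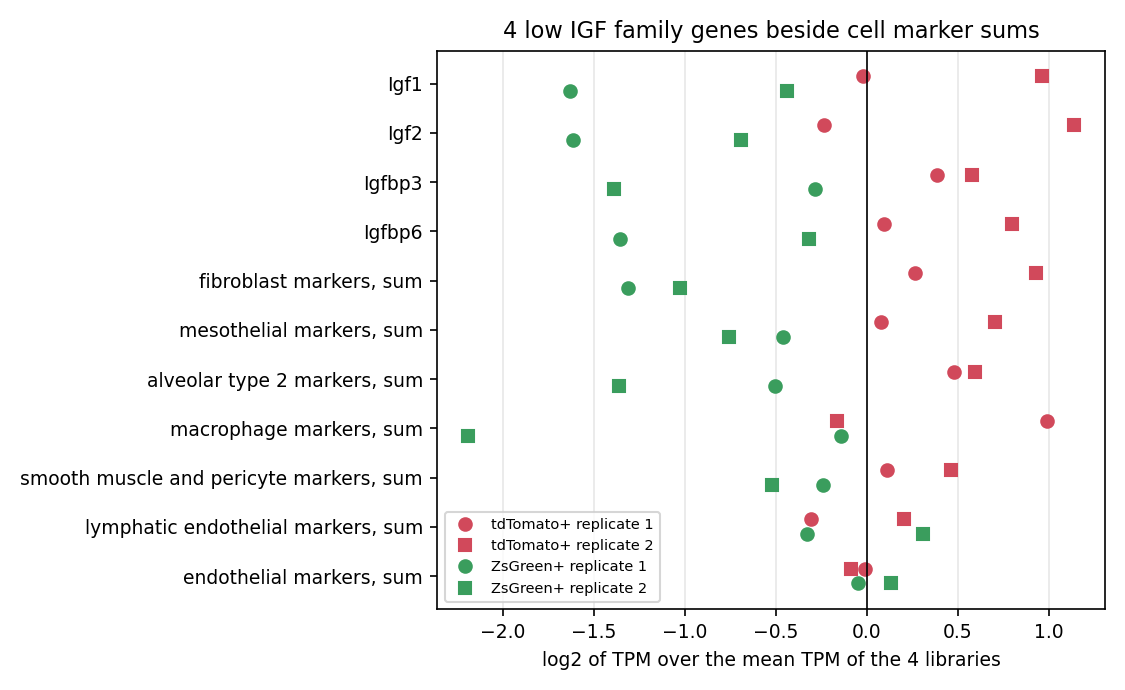
TPM of Igf1, Igf2, Igfbp3 and Igfbp6 and summed TPM of 7 marker lists in each library, as log2 over the mean of the 4 libraries; red marks tdTomato+ and green ZsGreen+, circles replicate 1 and squares replicate 2. The 4 genes, like the fibroblast, mesothelial, alveolar type 2 and smooth muscle sums, have both tdTomato+ libraries above both ZsGreen+ libraries. In TPM 28.8% of all genes do. Krt19 makes up most of the mesothelial sum and Tagln nearly all of the smooth muscle and pericyte sum, so these sums mainly show those genes.

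Beyond the 10 genes, 47 of 50 further genes of the pathway were in the table and 41 were tested. edgeR called 1 of the 41, Fn1, beside 0.304% of all genes. At an unadjusted p under 0.05 there were 7, or 17.1%, with 5 higher and 2 lower, beside 8.77% of all genes. The median log2 fold change of the 41 was 0.00, against -0.01 over all genes.

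Regulators of binding protein breakdown held the widest values. Htra1, a secreted serine protease that cuts binding proteins and matrix, stood at 107.7 and 141.6 CPM in the tdTomato+ libraries against 42.8 and 25.6 in the ZsGreen+ libraries. Its log2 fold change of 1.87 (SE 0.29) missed the threshold (edgeR adjusted p = 0.0809). The range over alternatives was 1.54 to 2.28, and Htra1 was called under 5 of 14 of them. DESeq2 called it (DESeq2 adjusted p = 6.06e-07), as did edgeR without the filter on low counts (edgeR adjusted p = 0.00928). The lowest value came from edgeR with the replicate number as a block (adjusted p = 2.28e-15), a pairing that no label gives. Stanniocalcins block the protease PAPP-A, which cuts Igfbp4. Stc1 stood at 8.53 and 12.5 CPM against 5.19 and 6.03 CPM (edgeR log2 fold change 0.91, SE 0.35, adjusted p = 0.509). Stc2, named after its values were seen, stood at 0.33 and 0.40 TPM against 0.83 and 3.38 TPM (edgeR log2 fold change -2.57, SE 0.83, adjusted p = 0.391). Pappa itself was at most 0.08 TPM and Pappa2 at most 0.01 TPM in any library, and neither was tested.

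Matrix and integrin partners of the binding proteins held the 1 call. Fn1, fibronectin, rose from 61 ± 17.5 to 213 ± 19.8 CPM (edgeR log2 fold change 1.80, SE 0.24, adjusted p = 0.0467). The call ended without tdTomato+ replicate 1, tdTomato+ replicate 2 or ZsGreen+ replicate 2 (edgeR adjusted p = 0.12, 0.186 and 0.0553), where the log2 fold change was 1.70, 1.92 and 1.53. It also ended with limma on log2(TPM + 0.1) (adjusted p = 0.0505) and on log2(TPM + 1) without a filter (adjusted p = 0.184), and held under 9 of 14 alternatives. The 4 tested integrin chains did not pass, with Itgb3, the beta chain of the vitronectin receptor, at 114.2 and 92.7 CPM against 66.8 and 62.5 CPM (edgeR log2 fold change 0.68, SE 0.18, adjusted p = 0.28). Fn1 is also a product of fibroblasts, whose markers are given above. It was highest in tdTomato+ replicate 1, at 227.1 against 199.1 CPM in replicate 2, while all 9 fibroblast markers were highest in tdTomato+ replicate 2. Which cells the Fn1 RNA came from was not tested.

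No tested signalling gene below the receptor passed the test. Irs2, a substrate that FoxO factors induce, stood at 8.47 and 7.46 CPM against 3.73 and 2.79 CPM (edgeR log2 fold change 1.29, SE 0.38, adjusted p = 0.327), and Irs1 was at most 0.15 TPM in any library. Grb14, an adaptor that restrains insulin receptor signalling, had 4.57 ± 0.0757 against 6.80 ± 2.46 CPM. The 16 genes of PI3K, Akt and mTOR had a median log2 fold change of -0.05 and ranged from -0.57 to 0.24, with Akt1 at the low end (SE 0.30, edgeR adjusted p = 0.711). Eif4ebp1, a translation repressor that mTOR switches off, stood at 135 ± 9.26 against 180 ± 12.6 CPM (edgeR log2 fold change -0.42, SE 0.17, adjusted p = 0.551). Foxo1, the FoxO factor best known from endothelium, had 190.5 CPM in each tdTomato+ library and 152 and 137.4 CPM in ZsGreen+ cells (edgeR log2 fold change 0.40, SE 0.17, adjusted p = 0.572). Foxo4 had 33.9 ± 5.42 against 43.1 ± 11.8 CPM.

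The enzymes that make the mannose 6-phosphate mark read by IGF2R did not pass either. Gnptab, the catalytic chain of the phosphotransferase, had 20.2 ± 3.17 against 15 ± 0.219 CPM (edgeR log2 fold change 0.43, SE 0.24, adjusted p = 0.732) and its partner Gnptg 58.7 ± 4.25 against 62.4 ± 2.08 CPM. Igf2bp1, an RNA-binding protein named for its Igf2 target, was listed at 0 TPM in all 4 libraries, and Igf2bp2 and Igf2bp3 were at most 0.34 TPM.

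**Figure D5:**
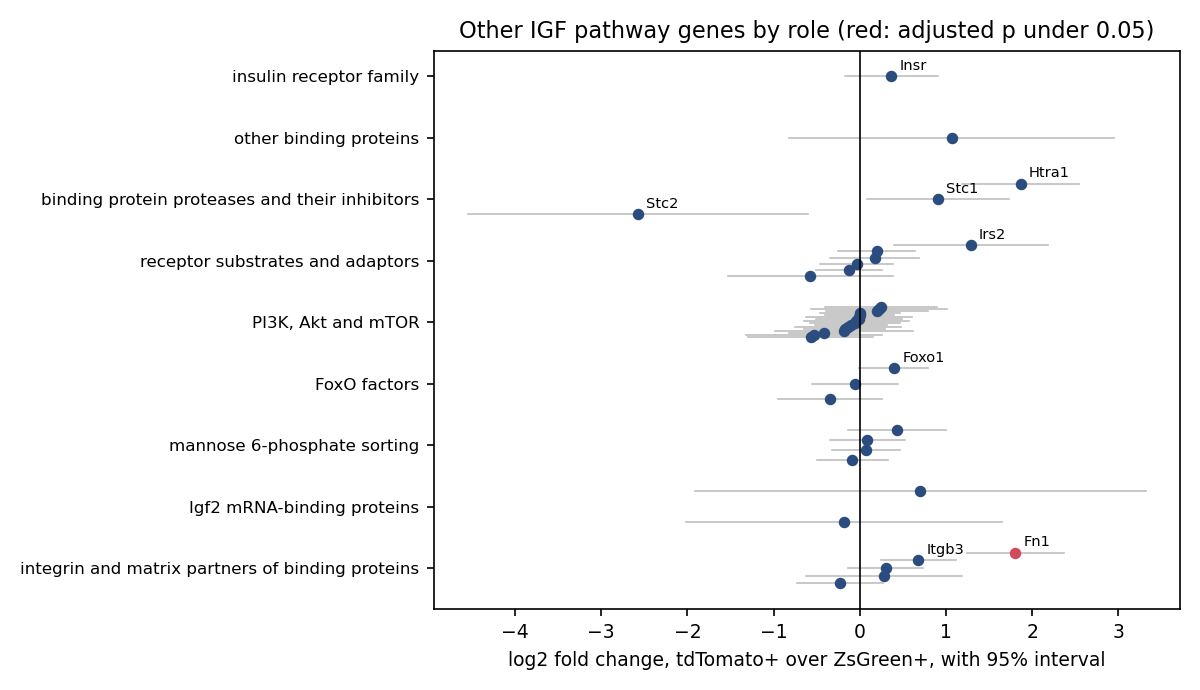
Log2 fold change, tdTomato+ over ZsGreen+, of 41 further pathway genes with 95% intervals, by role; red is the gene called by edgeR (Fn1) and blue the others. PI3K, Akt and mTOR genes lie between -0.57 and 0.24, while Htra1, Stc2, Irs2 and Fn1 lie furthest from 0.

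Annotation bears on 4 of the 10 counts, since strand is not stated for the counting. In GENCODE M21 (GRCm38) an exon of Igfbp7 (chromosome 5, 77349240 to 77408045) overlaps one of Polr2b on the opposite strand, an RNA polymerase subunit read at 14.6 to 19.3 TPM here against at least 2174 TPM for Igfbp7. Igf2 (chromosome 7, 142650768 to 142666816) shares exon sequence with the antisense Igf2os and with a read-through gene on its own strand. Igf2r (chromosome 17, 12682406 to 12769706 in RefSeq) overlaps Airn, the antisense RNA of its imprinted locus, and Igf1 (chromosome 10, 87858265 to 87937047) overlaps Igf1os, both without shared exons. The deposited span matched RefSeq for 8 of the 10 genes and differed for Igf2r and Igfbp4.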

How the data were processed

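Total RNA of sorted pulmonary endothelial cells went through whole-transcriptome amplification before library preparation, per the labels' protocols, and no molecular identifiers are named. RSEM 1.3.1, DESeq2 1.4.5 and the mouse build GRCm38 are listed in the submitters' processing notes without a role, and the counting is not said to use strand. The authors deposited one table of 17915 coding genes, with an estimated count per gene and library, per the file headers. Between 16.2% and 17.9% of a library's values were not whole, and all were rounded for tests. TPM values were used as the authors deposited them. The deposited FPKM values and the deposited normalized counts, a scaled signal, were not used.

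The groups were compared in edgeR 4.0.16 (R 4.3.3) by the two-sided quasi-likelihood F-test with TMM factors (0.927 to 1.045) and filterByExpr (minimum count 10), Benjamini-Hochberg adjusted over 13177 genes and called under 0.05. Standard errors come from the log2 fold change and its F statistic, and 95% intervals use edgeR's total degrees of freedom. In data simulated for this comparison over 13177 genes, edgeR called 20% of 2-fold and 96.7% of 4-fold changes among genes at 5 CPM or more. Igf1, Igf2, Igfbp2 and Igfbp6 averaged under 5 CPM, so these shares do not cover them. The simulation also gave every gene the same dispersion and drew libraries independently, unlike the measured data.

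The 10 members, the pathway and marker lists and the tests were chosen with earlier results of these data known. Named are the members, of each pathway role the 2 genes of lowest p among those averaging 5 CPM or more, any called pathway gene, Acta2, up to 2 markers per list with the highest TPM, and the 3 genes nearest to the member with the smallest p. Marco, Pdgfra, Tcf21, Dpt, Lum, Reln, Mmrn1, Thy1, Stc2, Irs1, Pappa, Pappa2, Igf2bp1, Igf2bp2 and Igf2bp3 fall outside this rule and were named after their values were seen. Alternatives were DESeq2 1.42.0, limma-voom (limma 3.58.1), upper quartile or RLE factors, other filters, leaving out each library, a replicate block, and limma with trend on log2 TPM plus 1 or 0.1. Counts of groups that do not overlap under other scales were added after the data were seen.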

Additional observations from a re-analysis of the deposited data

How the results depend on the processing

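The count of calls over all genes, 40 with edgeR, was 330 with DESeq2, 128 without a filter on low counts, 22 on log2(TPM + 0.1), and 0 with limma on log2(TPM + 1) without a filter, where 1508 of 16755 genes had an unadjusted p under 0.05. Leaving out 1 library gave 4 to 304 calls: 17 and 4 when tdTomato+ replicate 1 or 2 was left out, 304 and 26 when ZsGreen+ replicate 1 or 2 was. The cause was not tested.

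Of the 10 IGF genes 0 were called under 13 of 14 alternatives. With the replicate number as a block, edgeR called 934 genes (7.09% of those tested) and 1 of the 10, Igfbp3 (log2 fold change 1.14, edgeR adjusted p = 0.0165; 0.0165 to 1 over its alternatives). At an unadjusted p under 0.05 the block had 4 of the 10, beside 14.7% of all genes. The deviations of same-numbered libraries from their group means had a correlation of 0.455 over 13177 genes. With 2 pairs and no label that ties the numbers to a mouse or day, this does not show that the numbers pair the libraries.

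Of 137 values of the 10 genes under alternatives, 6 had the other sign. Igfbp2 was -0.51 with limma-voom, -0.10 on log2(TPM + 0.1) and between -3.53 (without tdTomato+ replicate 2) and 1.94 with 1 library left out. Igfbp5 lay between -0.23 and 0.56 with 1 library left out, below 0 without the second replicate of either group (-0.22 for tdTomato+). Igfbp7 lay between -0.67 and 0.23, above 0 without ZsGreen+ replicate 1. The log2 ratio of summed binding protein TPM ranged from -0.281 to 0.307 when 1 library was left out, the highest without ZsGreen+ replicate 1, and was 0.493 without Igfbp7. The cause was not tested. Igf1, Igf2, Igfbp3 and Igfbp6 stayed above 0 under every alternative run, from 0.46 to 1.95. Their tdTomato+ libraries both stood above both ZsGreen+ libraries in CPM, so leaving out a library could hardly turn the sign. The constant sign is therefore no separate support. Igf1 could not be fitted on the filtered TPM values and Igfbp2 was left out by the minimum count of 50. Counts of 1 to 53 and a wide spread between replicates both bear on Igfbp2. Intervals cover the spread of 2 libraries per group, and with 1 library left out the lone library is assumed to vary like the other group.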
